A study of Homo sapiens with 12 samples.

Results

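STAT5B binding with and without prednisolone was compared in SUPT-1 cells, a long-established human line of T-cell acute lymphoblastic leukaemia, engineered to overexpress the N642H form of STAT5B. The members were the STAT5B ChIP-seq regions of 2 libraries, kept where they lay on chromosomes 1 to 22 and X: 444 regions with prednisolone and 4541 untreated, together 4985 of the 12019 regions that the 8 ChIP libraries of the series held. The prednisolone cells received 250 µg per ml for 16 hours and the untreated cells received none. Cells of both groups carried a doxycycline-inducible STAT5B N642H construct, were selected with puromycin and were induced with doxycycline, so neither group lacked the mutant protein. The sources used here do not say whether the line was 1 clone or a pool, and the pull-down does not separate the mutant from the cells' own STAT5B.

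A region was called kept when it overlapped a region of the other list by at least 1 bp, lost when it was in the untreated list alone, and gained when it was in the prednisolone list alone. Lost therefore means not called with prednisolone, and gained means not called in untreated cells. Each group had 1 library, so the spread between cultures was not measured and no test between the conditions was possible. The 95% intervals given below are exact Clopper-Pearson intervals and cover only the counting error over regions.

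STAT5B is a latent transcription factor that Janus kinases phosphorylate after cytokines such as interleukin 7 bind their receptors. It then enters the nucleus as a dimer and binds palindromic motifs of the form TTCNNNGAA near genes such as CISH, the SOCS genes, PIM1 and BCL2L1. N642H is a recurrent leukaemia mutation in the SH2 domain that prolongs the active, phosphorylated state. Prednisolone is a synthetic glucocorticoid that activates the glucocorticoid receptor NR3C1, a transcription factor that can bind on its own or beside other factors.

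Promoter sequences show how the called intervals sat on such motifs. The 6 stretches below were taken from RefSeq on GRCh38.p14, the assembly that corresponds to the hg38 build of the files, and they were chosen because a region covered the motif. They run 5′ to 3′ along the gene's strand up to or just short of the annotated start, with each TTCNNNGAA in capitals. CISH, BCL6 and GTF3C3 had kept regions, IRF1 and IRF9 lost ones, and GTF3C5 a gained one. The CISH stretch is chr3:50611775-50612024 on the minus strand, the BCL6 stretch chr3:187745469-187745541 on the minus strand and the GTF3C3 stretch chr2:196799684-196799775 on the minus strand. The IRF1 stretch is chr5:132490844-132490942 on the minus strand, the IRF9 stretch chr14:24161157-24161255 on the plus strand and the GTF3C5 stretch chr9:133030889-133030987 on the plus strand.
CISH: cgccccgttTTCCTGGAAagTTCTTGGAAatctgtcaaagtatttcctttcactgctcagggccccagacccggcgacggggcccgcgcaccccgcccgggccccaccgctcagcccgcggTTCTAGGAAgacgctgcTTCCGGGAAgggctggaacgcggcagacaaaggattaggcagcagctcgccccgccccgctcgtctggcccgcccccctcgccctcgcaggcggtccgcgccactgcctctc
BCL6: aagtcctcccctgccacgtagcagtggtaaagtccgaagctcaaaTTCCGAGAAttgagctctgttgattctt
GTF3C3: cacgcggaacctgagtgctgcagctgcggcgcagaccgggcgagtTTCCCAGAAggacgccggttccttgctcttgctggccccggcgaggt
IRF1: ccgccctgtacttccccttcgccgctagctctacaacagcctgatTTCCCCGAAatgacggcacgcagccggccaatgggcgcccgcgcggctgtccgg
IRF9: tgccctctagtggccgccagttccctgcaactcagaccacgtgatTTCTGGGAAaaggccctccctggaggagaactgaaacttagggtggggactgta
GTF3C5: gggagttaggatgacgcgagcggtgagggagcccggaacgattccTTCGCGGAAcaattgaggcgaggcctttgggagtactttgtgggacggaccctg

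The CISH promoter held 4 motifs, which began 241, 230, 129 and 112 bases upstream of the annotated start. With prednisolone the called interval at CISH was chr3:50611937-50612058, with its summit at 50612010 inside the outermost motif, and it covered only the outer pair. The untreated interval, chr3:50611793-50612197, covered all 4 motifs and had its summit at 50611904, beside the third of them. Kept regions in general were narrower with prednisolone, with a median width of 121 bp against 328 bp untreated. The CISH interval was 122 bp wide with prednisolone and 405 bp untreated. The motifs covered therefore do not by themselves show a change in motif use. CISH encodes a feedback inhibitor of cytokine receptor signalling, and its promoter overlaps that of MAPKAPK3, a kinase gene on the other strand. At BCL6, a transcriptional repressor gene of lymphocytes, 1 motif began 28 bases upstream of the start and lay inside the regions of both libraries. GTF3C3 and GTF3C5 encode subunits of the RNA polymerase III factor TFIIIC. The GTF3C3 motif was inside both of its regions, and the GTF3C5 motif was inside a region called with prednisolone alone. At IRF1 and IRF9, transcription factor genes of the interferon response, no region was called within 50 kb with prednisolone, and the motif lay inside an untreated region.

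Most prednisolone regions were also called in untreated cells, and most untreated regions were not called with prednisolone. With prednisolone 313 of 444 regions (70.5%, 66.0 to 74.7) overlapped an untreated region, and 131 (29.5%, 25.3 to 34.0) were gained. From the untreated list 311 of 4541 regions (6.85%, 6.13 to 7.62) were called again and 4230 (93.2%, 92.4 to 93.9) were lost. The kept calls coincided closely: the distance between summits had a median of 39 bp, and 272 of the 313 pairs lay within 100 bp. Kept shares of the untreated regions ranged from 3.85% on chromosome 22 to 9.79% on chromosome 15.

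The libraries differed in background and in the width of their narrowest peaks. Backgrounds were solved from the deposited fold and −log10 p. The lowest value shared by at least 5 peaks of a library was taken as its genome background. It was 0.31 tags per position with prednisolone and 0.977 untreated. The narrowest peaks were 75 bp with prednisolone and 156 bp untreated. With these widths taken as fragment lengths, which were not measured, the estimated ChIP depth was 4.14 tags per kb with prednisolone and 6.26 untreated. When the untreated pileups and backgrounds were scaled by 0.318, the ratio of the genome backgrounds, only 538 of 4541 untreated regions (11.8%) would have reached the lowest −log10 p of the prednisolone list, 6.43. Of these 538, 156 (29.0%, 25.2 to 33.0) were kept and 382 were lost. A further 155 regions were kept although their scaled values fell short, so the limit is approximate. The scale also carries any difference in fragment length. Below the limit a missing call does not by itself show an absence.

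**Figure D1:**
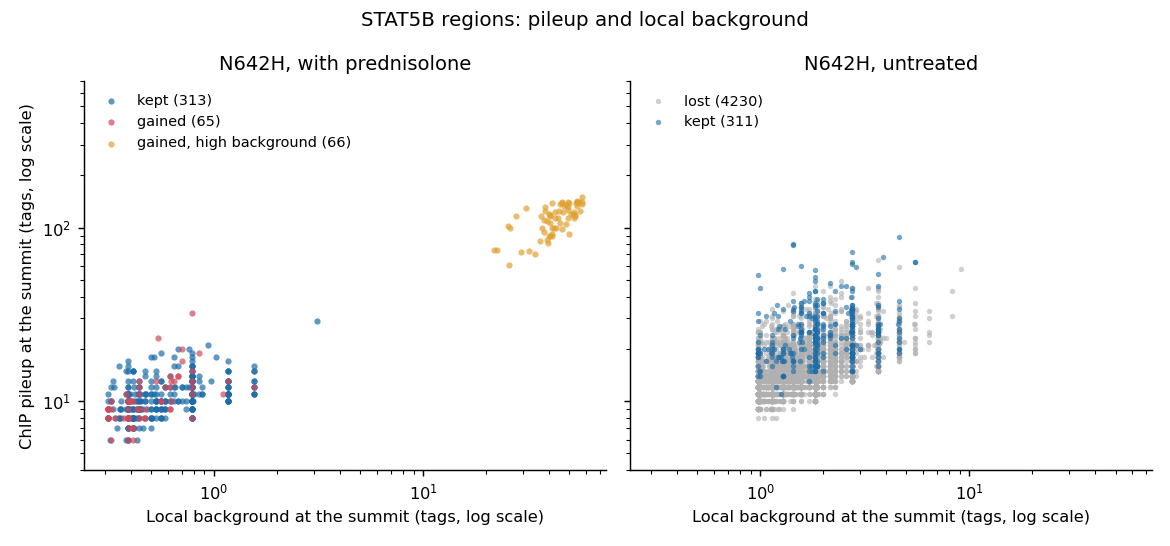
ChIP pileup against local background at the summit of each STAT5B region of the N642H line, in tags on log scales, with prednisolone on the left and untreated on the right. Each point is 1 region; the 66 gained high-background regions form a separate cloud at backgrounds from 21.9 to 57.8, and no untreated region lies there.

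The gained calls fell into 2 kinds. Of the 131, 66 (50.4%, 41.5 to 59.2) were high-background regions, defined by a local background at least 10 times the genome background of the library, and 65 were not. The high-background regions had a median pileup of 117 tags over a median background of 43.1 tags, which gave a median fold of only 2.54, although their median −log10 q was 12.6. The other gained regions had a median pileup of 10 tags over 0.439 and a median fold of 7.19, close to the 7.09 of the kept regions in the same list. The plot of pileup against background shows the separation. No untreated region met the high-background definition, which scales with the genome background of each library. The highest untreated background, 9.17 tags, fell just short of 10 times the untreated genome background of 0.977. Without the high-background regions 312 of 377 prednisolone regions (82.8%, 78.6 to 86.4) were kept.

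The 67 high-background regions, 1 kept one included, lay in a few blocks, most of them far from genes. The largest group was 20 regions between 34572670 and 34595555 on chromosome 16, followed by 18 regions between 46386390 and 46401608 on the same chromosome and 12 between 143192727 and 143264765 on chromosome 1. Other groups of 5, 4 and 3 lay on chromosomes 5, 1 and 4, and the remaining 5 were a pair 30404 bp from LTBP1 and solitary regions, 2 on chromosome 17 and 1 on chromosome 3. None lay at a gene end or inside a protein-coding gene. NR3C1 regions of the same line with prednisolone covered 53 of the 66 gained ones (80.3%, 68.7 to 89.1), at NR3C1 folds of 1.6 to 2.61. No STAT5B list of the line overexpressing wild-type STAT5B (WT line) had a region at any of the 66 (0.0%, 0.0 to 5.44). These regions made up 8 of the 10 regions with the highest −log10 q with prednisolone and 17 of the highest 20. The kept one lay 28917 bp from GRAPL, at 10.1 times the genome background and a fold of 7.28. The next region inside the limit stood at 70.4 times and the next outside at 5.03 times.

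Among the 10 untreated regions with the highest −log10 q, all 10 were called again with prednisolone, as were 16 of the top 20, 35 of the top 50 and 57 of the top 100. In the strongest decile of the untreated list 139 of 454 regions were called again (30.6%, 26.4 to 35.1), in the next decile 65 of 454 (14.3%, 11.2 to 17.9), and in the weakest 4 of 455 (0.879%, 0.240 to 2.24). In the untreated list the kept regions had a median fold of 8.47 and a median −log10 q of 13.4, and the lost regions 6.07 and 6.63. In the strongest decile the regions that coincided with an NR3C1 region of the prednisolone-treated line were called again in 92 of 230 cases (40.0%, 33.6 to 46.6), and the others in 47 of 224 (21.0%, 15.8 to 26.9). That decile ran from a −log10 q of 14.3 to 99.3, and strength within it was not matched between these groups.

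**Figure D2:**
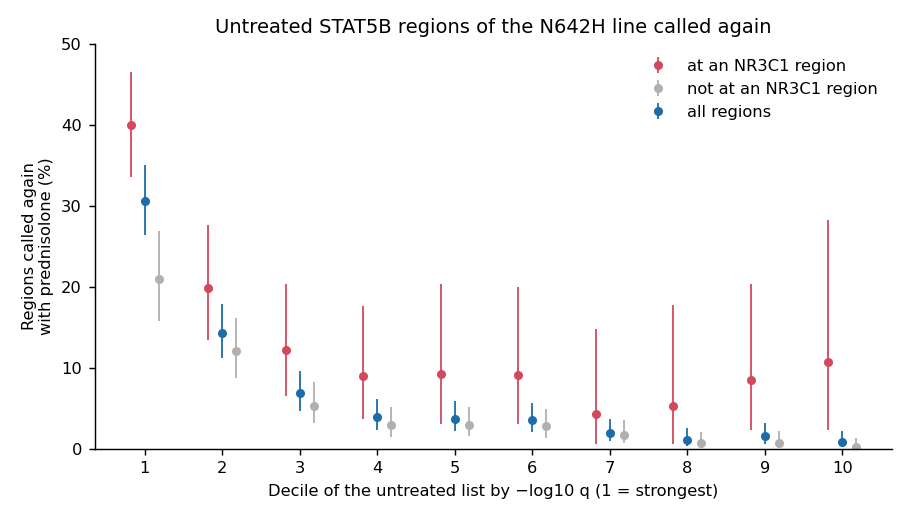
Share of untreated STAT5B regions of the N642H line that were called again with prednisolone, in percent, by decile of the untreated list ranked by −log10 q (1 is the strongest). Points are shares of all regions, of those at an NR3C1 region and of the others, and bars are exact 95% intervals; the share of all regions was 30.6% in the strongest decile and 0.879% in the weakest.

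Kept regions were led by one in BCL2L1 and one near SOCS1. The fold and −log10 q that follow are the authors' values for each peak within its own list, and 2 values set side by side do not measure a change between the libraries. BCL2L1, the gene of the survival protein BCLXL, had the kept region with the highest −log10 q with prednisolone, at chr20:31675949-31676087 inside the gene. Its fold was 12.9 with prednisolone and 17.1 untreated, and its summits in the prednisolone and untreated libraries were at 31675982 and 31675981. It was the only region called within 50 kb of BCL2L1 with prednisolone, against 7 in untreated cells, where 93.2% of all untreated regions were lost. Among the 6 that were not called again was one at chr20:31708382-31708758 with a fold of 13.2 and a −log10 q of 25.5, also inside the gene.

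SOCS1, a feedback inhibitor gene of Janus kinases, had a kept region 21148 bp away at chr16:11233024-11233424 with a fold of 12.6, against 32.9 in untreated cells. PIM2, a survival kinase gene, had a kept region 18180 bp away, inside the neighbouring gene OTUD5, with a fold of 12.6 with prednisolone and 27.3 untreated. PIM1, its homologue, had a kept region 7889 bp away with a fold of 4.69 with prednisolone and 25.8 untreated. No kept region of the prednisolone list had a lower fold, and its −log10 q there was 2.44, near the list's lowest of 2.02. SOCS2 kept a region inside the gene, with a fold of 6.66 with prednisolone and 9.61 untreated. CISH had folds of 7.91 with prednisolone and 12.7 untreated, and BCL6 7.3 and 18.7 in the prednisolone and untreated lists. The untreated list's own strongest region, in ARID3B, a DNA-binding factor gene, was kept with a fold of 8.99, against 33.3 untreated.

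Among the other kept regions in the top 10 by −log10 q with prednisolone, 4 had the higher fold in the prednisolone list. HIGD2A, a mitochondrial assembly factor gene, had a fold of 11.9 with prednisolone and 5.24 untreated, NR1H3, which encodes a liver X receptor, 12.2 and 8.86, WDR74, a ribosome biogenesis gene, 11.6 and 6.98, and ZBTB7B, a T-helper lineage factor gene, 12.9 and 11.9, in that order of libraries. Further ones lay 45654 bp from RPS6KA1, a kinase gene (12.5 with prednisolone and 23.8 untreated), and 8469 bp from DAD1, which encodes a glycosylation subunit (11.4 with prednisolone and 19.5 untreated). Each is the nearest protein-coding gene, and genes of other classes were not considered. FKBP5, which encodes a co-chaperone of the glucocorticoid receptor and is a classical glucocorticoid target, had 3 regions in each library, and all were kept. The region just inside its start, chr6:35728067-35728279, had a fold of 11.2 with prednisolone and 5.86 untreated.

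Lost regions, 93.2% of the untreated list, included some of high rank. The lost region with the highest −log10 q lay in BAIAP2, an actin-regulator gene, with an untreated fold of 14.1 and −log10 q of 50.7, and CDC42SE2, which encodes an effector of CDC42, followed with 16.6 and 41.6. SOCS3, another feedback inhibitor gene, had no region within 50 kb with prednisolone. Untreated cells had a region inside the gene at chr17:78359956-78360247 with a fold of 17.7 and −log10 q of 40.6, and a weaker one of fold 3.64 nearby. EVL, an actin regulator gene, KAZN, SH3TC1 and the neighbourhood of MYO18B, a myosin gene, had untreated folds of 14.6, 14.9, 15.7 and 14.7. UTP3 (9972 bp away, fold 10.7), AXIN2, a Wnt pathway inhibitor gene (4975 bp away, fold 12.3), and AURKAIP1 (167 bp away, fold 16.3) completed the 10. NR3C1 regions with prednisolone covered 8 of these 10 sites, all but those at SOCS3 and AURKAIP1. Over all lost regions the share was 647 of 4230 (15.3%, 14.2 to 16.4), and in the strongest decile of the untreated list, kept regions included, 230 of 454 regions lay at NR3C1.

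Further loci had untreated calls alone within 50 kb. Over the whole list 93.2% of untreated regions were lost. MYC, the proliferation factor gene, had no region within 50 kb with prednisolone and 2 in untreated cells, the stronger inside the gene with a fold of 6.99. A kept region farther along chromosome 8, chr8:129168160-129168404, lay outside this window, with a fold of 9.39 with prednisolone and 14.2 untreated. Its nearest protein-coding gene was GSDMC, 537146 bp away, and a link to MYC was not tested. MCL1, an anti-apoptotic gene, had 2 untreated regions of fold 5.64 and 4.53. BCL2L11, the gene of the death-promoting protein BIM, had 1 of fold 4.27, 410 bp from the gene. At BCL2 no region was called within 50 kb in either library. The gene NR3C1 had 1 untreated region inside it of fold 6.1, and STAT5A and STAT5B shared 1 untreated region of fold 6.35, 863 bp from STAT5A.

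**Figure D3:**
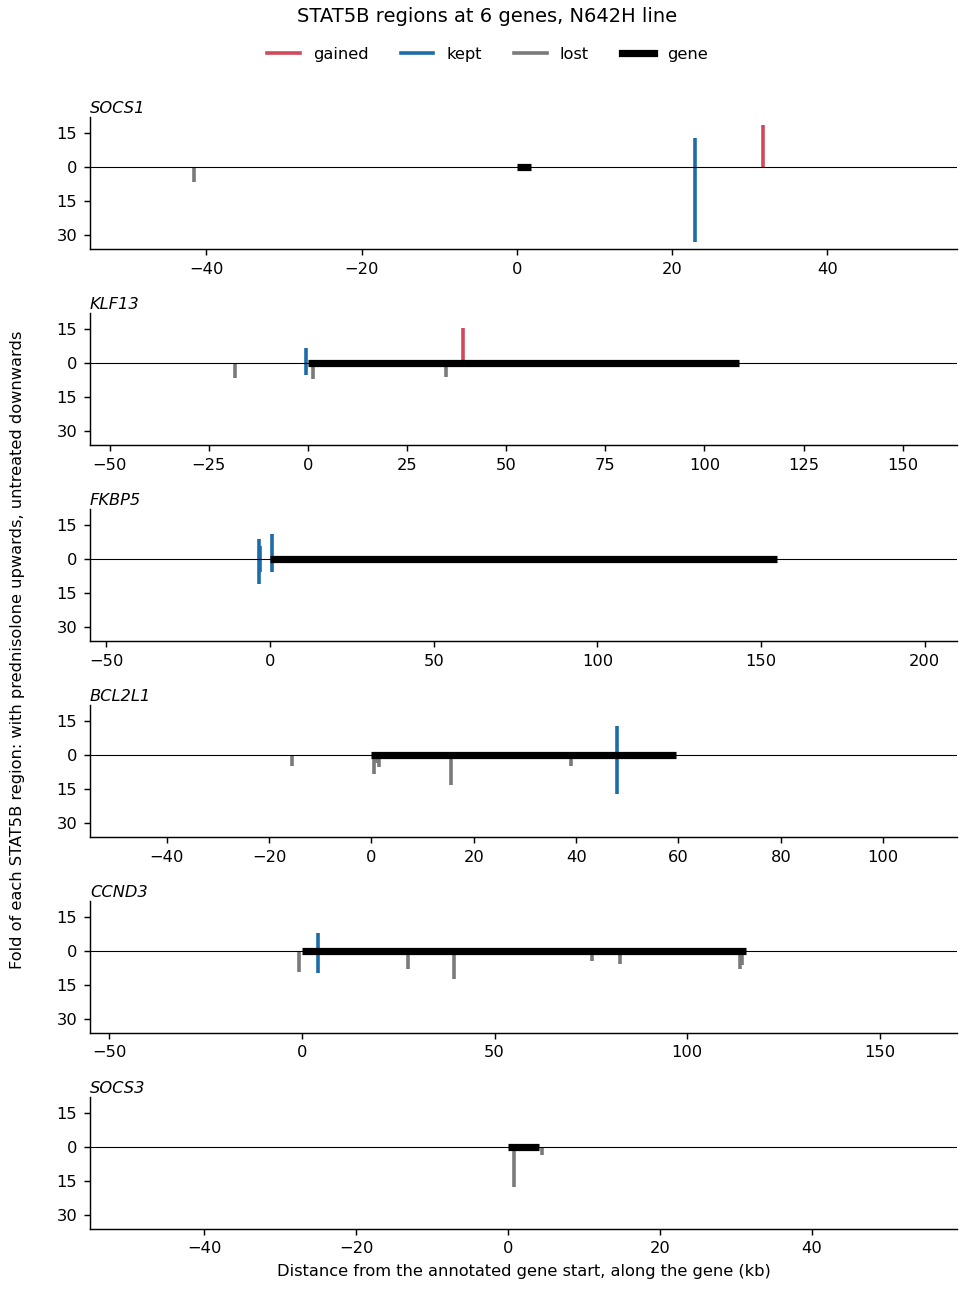
STAT5B regions of the N642H line within 50 kb of 6 genes, by distance of the summit from the annotated gene start in kb, with the fold of each region drawn upwards for the prednisolone library and downwards for the untreated one. SOCS1 and KLF13 each have a gained and a kept region, and all 3 FKBP5 regions are kept. BCL2L1 and CCND3 keep 1 of 7 and 1 of 8 untreated regions, and SOCS3 has none with prednisolone.

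The 65 gained regions outside high background were led by sites near SOCS1 and in KLF13. The highest −log10 q, 31.3, with a fold of 18.5, belonged to a region 30007 bp from SOCS1, chr16:11224224-11224570. It lay beside the kept SOCS1 region, 8881 bp from the nearest untreated summit. KLF13, a Krüppel-like factor gene, had one inside the gene with a fold of 15.6, and the 4 untreated regions within 50 kb of that gene lay elsewhere. KIF3C, a kinesin gene (fold 12.3), a site 6362 bp from HTR5A (fold 10.8) and a site 166685 bp from NR3C1 itself (fold 10.6) came next. They were followed by CLPB, a mitochondrial chaperone gene (fold 9.73), RPS19BP1 (fold 9.29), DLEU7 (fold 8.99), a site 18274 bp from the chemokine receptor gene CXCR4 (fold 9.17) and a site 29110 bp from LOC107985876 (fold 8.96). IKZF1, which encodes the lymphoid factor Ikaros, had a gained region of fold 8.61 inside the gene. A gained region 39021 bp from TSC22D3, the gene of the glucocorticoid-induced leucine zipper, had a fold of 8.69, and no untreated region lay within 50 kb of that gene. The protein-coding gene nearest to this gained region was PRPS1, 23174 bp away. IL7R, the interleukin 7 receptor gene, had a gained region 2339 bp away with a fold of 6.76. Its 4 untreated regions were not called again, like 93.2% of all untreated regions.

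Most gained regions outside high background that coincided with NR3C1 sat at strong NR3C1 regions. Of the 65, 28 (43.1%, 30.8 to 56.0) overlapped one of the 2888 NR3C1 regions of the N642H line with prednisolone, and 50.5% (44.8 to 56.2) of the kept regions did so. The NR3C1 regions under those 28 had a median NR3C1 fold of 77.9, with 22 of 28 (78.6%) at a fold of 20 or more. Under kept regions the median NR3C1 fold was 9.45 (18.4% at 20 or more), under lost regions 7.81 (6.49%), and over all 2888 NR3C1 regions 8.26 (11.6%). The NR3C1 region near SMOX, the strongest of all, had an NR3C1 fold of 118 and held a gained STAT5B region of fold 6.74. KLF13 stood at rank 2 and the SOCS1 site at rank 3 of the NR3C1 list, with NR3C1 folds of 114 and 95.5, and their STAT5B and NR3C1 summits were 9 and 10 bp apart. At the other end, the gained regions at GTF3C5, SNRPB, FOXK2, ARID4B and EPHB1 lay at NR3C1 regions of fold 6.22 to 7.64, at ranks 1578 to 2488. Near ANAPC16 and near LOC107985876, 1 NR3C1 region held 2 gained STAT5B regions each.

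The NR3C1 list was also read by rank of −log10 q. Gained STAT5B regions outside high background lay at 17 of its top 25 regions, at 2 of ranks 26 to 100, at 2 of ranks 101 to 500 and at 5 of ranks 501 to 2888, while 44 NR3C1 regions with a high-background STAT5B region were all in the last group. The counts that follow are of all STAT5B regions, kept ones included. STAT5B regions with prednisolone overlapped 21 of these 25 (84.0%, 63.9 to 95.5), against 6 (24.0%, 9.36 to 45.1) for untreated STAT5B regions. At ranks 26 to 100 the counts were 6 of 75 (8.0%, 2.99 to 16.6) with prednisolone and 16 of 75 (21.3%, 12.7 to 32.3) untreated. At ranks 101 to 500 they were 36 of 400 (9.0%, 6.38 to 12.2) with prednisolone and 97 of 400 (24.2%, 20.1 to 28.8) untreated, and from rank 501 to 2888 they were 161 of 2388 (6.74%, 5.77 to 7.82) and 684 of 2388 (28.6%, 26.8 to 30.5) in the prednisolone and untreated libraries. Coverage with prednisolone was the higher in the top 25 and the lower in the other 3 rank groups, and untreated coverage lay between 21.3% and 28.6% in all 4. The WT line's STAT5B lists, from other libraries, overlapped 16 of the top 25 (64.0%, 42.5 to 82.0) with prednisolone and 6 (24.0%, 9.36 to 45.1) untreated, and 15 (20.0%, 11.6 to 30.8) and 5 (6.67%, 2.20 to 14.9) of ranks 26 to 100. The rank groups and the fold limit of 20 were chosen after the values had been seen. Whether the STAT5B and NR3C1 lists were called against the same input library is not given in the sources used here. The part of NR3C1 strength and of a shared control in the gained calls at strong NR3C1 regions was not tested. Of all 131 gained regions 22 lay at an NR3C1 fold of 20 or more.

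**Figure D4:**
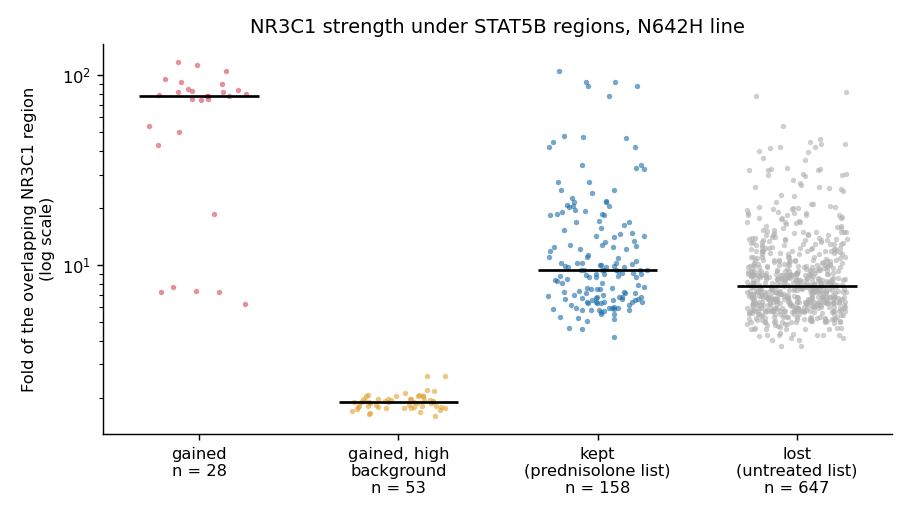
Authors' fold, on a log scale, of the NR3C1 region (N642H line with prednisolone) that each STAT5B region overlaps, for gained, gained high-background, kept and lost STAT5B regions. Each point is 1 STAT5B region and each bar a median: 77.9 for gained, 1.89 for gained high-background, 9.45 for kept and 7.81 for lost regions.

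Gained regions at NR3C1 and elsewhere differed in position. Gene ends were taken as the 1 kb on either side of the first and last base of each protein-coding gene. The summit was in such a stretch for 2 of the 28 gained regions at NR3C1 (7.14%, 0.877 to 23.5) and for 23 of the 37 others (62.2%, 44.8 to 77.5). Kept regions of the prednisolone list were at gene ends in 43.0% of cases at NR3C1 and 73.5% elsewhere, and lost regions in 20.2% and 61.9%. Some gained calls lay close to an untreated call. Of the 65, 8 had an untreated summit within 500 bp and 20 within 10000 bp, and the median distance was 52245 bp. At CXCR4 the gained and the nearest untreated region were 122 bp apart, and at KLF9, a glucocorticoid-induced Krüppel-like factor gene, 166 bp apart.

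Kept regions recurred in the WT line more often than lost ones did. In the untreated list 217 of 311 kept regions (69.8%, 64.3 to 74.8) overlapped a STAT5B region of the untreated WT line, and 1135 of 4230 lost regions did (26.8%, 25.5 to 28.2). The difference was smaller among strong regions: with lists of equal length the shares were 71.7% of kept and 59.2% of lost regions. With untreated regions limited to those that pass after scaling by the ratio of the genome backgrounds, they were 71.2% and 56.3%. With the prednisolone-treated WT line the shares were 54.3% of kept and 9.36% of lost regions. Gained regions outside high background overlapped STAT5B regions of that line in 21 of 65 cases (32.3%, 21.2 to 45.1). Among the 15 with the highest −log10 q, 11 did (73.3%, 44.9 to 92.2), and among the other 50, 10 did (20.0%, 10.0 to 33.7). The cut at 15 was not planned. STAT5B regions of the untreated WT line overlapped 18 of the 65 (27.7%, 17.3 to 40.2), the one in KLF13 among them. No other list used here, whether STAT5B in the WT line or NR3C1 with prednisolone in either line, had a region at 9.65% of kept and 61.6% of lost regions. Within the strongest untreated decile, 100 of 286 regions shared with the untreated WT line (35.0%, 29.4 to 40.8) and 39 of the other 168 (23.2%, 17.1 to 30.3) were called again. Strength within that decile was not matched between these groups either. At gene ends the kept and lost regions of the untreated list were close, at 57.9% (52.2 to 63.4) and 55.5% (54.0 to 57.0).

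**Figure D5:**
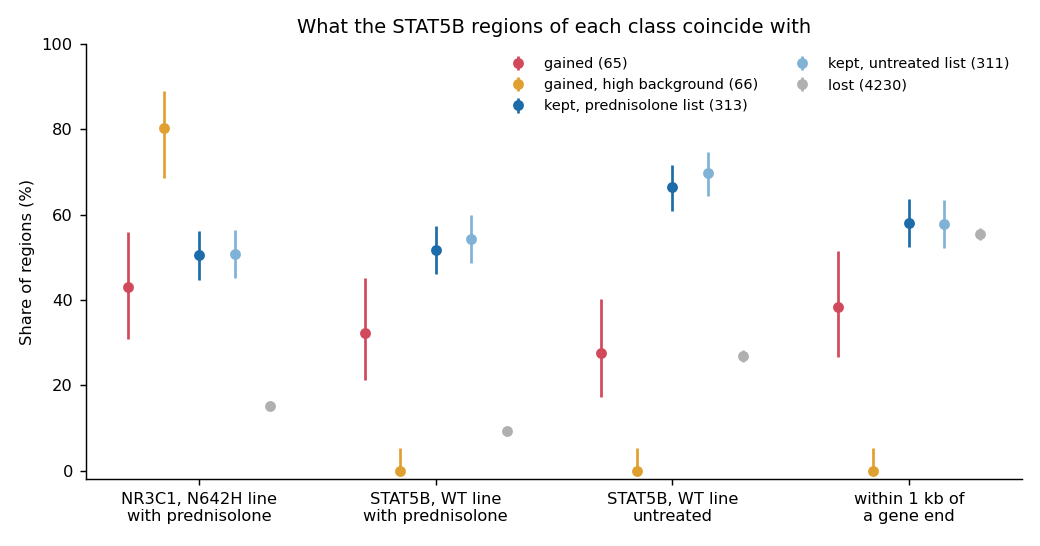
Share of STAT5B regions of each class, in percent with exact 95% intervals, that overlap a region of 3 other lists or lie within 1 kb of a gene end. Gained high-background regions overlap NR3C1 in 80.3% of cases and none of the other features; lost regions are low for all 3 lists and close to kept regions at gene ends.

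Counted by gene, a link was a summit inside a protein-coding gene or at most 20 kb from it. Of 19821 genes, 2.98% were linked with prednisolone, 28.9% untreated and 2.75% in both, and 9.52% of the genes linked in untreated cells were linked with prednisolone too. Kept regions linked 2.55% of all genes, gained regions without high background 0.474%, and 26.2% were linked in the untreated list alone. Of 30 STAT5 targets, 9 were linked with prednisolone and 18 untreated, and all 9 were linked in both. The 9 were BCL2L1, PIM2, CCND3, CISH, BCL6, SOCS2, PTPN22, PIM1 and IL7R, and only IL7R was linked through a gained region. Of 30 glucocorticoid response genes, 8 were linked with prednisolone and 20 untreated, with 6 of the 8 linked through a kept region (FKBP5, KLF9, TXNIP, KLF13, DDIT4 and PER1) and 4 through a gained one (KLF13, CXCR4, KLF9 and IL7R). Of 20 JAK-STAT and cytokine receptor genes, 3 were linked with prednisolone, among them STAT3 and IL7R, and 11 untreated.

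Of 20 BCL2 family genes, BCL2L1 was the only one linked with prednisolone, against 9 untreated. Of 30 T-lineage genes, 1 was linked with prednisolone, IKZF1, and 17 untreated. Only protein-coding genes were counted, so calls at genes of other classes do not appear in these counts. Markers describe where calls lie and cannot check the labelled cell type, since binding does not measure expression. Of the T-cell markers, 0 of 10 were linked with prednisolone and 6 untreated (CD3E, CD7, LCK, RAG1, PTCRA and TCF7), against 1 and 2 of 4 B-cell markers, 0 and 1 of 4 myeloid markers and 0 and 0 of 3 erythroid markers in the prednisolone and untreated lists. Ribosomal protein genes were linked in 4 of 30 cases with prednisolone and 26 untreated, and abundant housekeeping genes in 2 of 24 and 15 of 24. Of 24 chromatin and transcription regulators, 8 were linked with prednisolone, among them KMT2A, ARID1A, NCOR1 and KDM6B, and 14 untreated. Genes of non-blood tissues were linked in 0 of 16 cases with prednisolone and 3 of 16 untreated, and other blood cell genes in 1 and 3 of 16. Some links share a region: that of CD79A is also that of RPS19.

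The STAT5 motif was about as frequent in promoters under kept as under lost regions. RefSeq promoter windows from 250 bp before to 50 bp after a start were available for 15812 genes. Kept regions of the prednisolone list covered a window in 140 of 303 cases (46.2%, 40.5 to 52.0), gained ones without high background in 19 of 63 (30.2%, 19.2 to 43.0), and lost regions in 1786 of 4119 (43.4%, 41.8 to 44.9). TTCNNNGAA, whose reverse complement is the same pattern, was present in 13 of 188 windows under kept untreated regions (6.91%, 3.73 to 11.5), in 166 of 2244 under lost regions (7.40%, 6.35 to 8.56) and in 6.79% of all windows. The letters CCGGAAGT, a core of ETS factor sites, searched on both strands after the values had been seen, were present in 15.4% (10.6 to 21.4) of windows under kept, 14.9% (13.5 to 16.5) under lost regions and 5.35% of all. Median GC content was 65.0% under kept regions, 66.0% under lost regions and 62.3% over all windows. A match is a run of letters, and no match says nothing about the factor.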

How the data were processed

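ChIP with sonicated chromatin and an antibody to STAT5B or NR3C1 gave 8 libraries, with 4 input libraries for which no list was used. Per the submitters' processing notes BWA, MACS2 and deepTools were used on hg38. Versions and thresholds are not given in the sources used here. For each peak the authors deposited a span, a score, a fold enrichment (a ratio), −log10 p and −log10 q, and the summit offset. The values show 1 list per library with −log10 q of at least 2. Counted here were overlaps of at least 1 bp, distances to RefSeq genes (19821 protein-coding genes, GRCh38.p14) and motifs in RefSeq promoters. Pileup and background were solved from fold and −log10 p under a Poisson model, after a check on simulated data. The simulated pileups stood at higher multiples of the background than those of most high-background regions, so the check did not cover these. The largest remaining error was 0.000152, and 2 prednisolone regions had more than 1 solution. Alternatives were other overlap rules, thresholds, list lengths and link distances, and a scaling by the genome backgrounds. Regions on Y and on other sequences were left out, as was chromosome 8 for promoters.

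Members and gene lists were chosen with earlier results of these data known. Named genes are those nearest to the 10 regions with the highest −log10 q in each class, up to 8 linked members of each list, and 19 genes followed in both libraries. Some genes that this rule names are not reported here. ARID3B, CCND3, CXCR4, CASP8, IKZF1, the top NR3C1 sites and the genes with printed sequences were chosen after their values were seen. Work was done in Python 3.11.15 with SciPy 1.17.1 and Matplotlib 3.10.9.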

Additional observations from a re-analysis of the deposited data

Results flagged for a closer look

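Regions outside chromosomes 1 to 22 and X were not used in the comparison. With prednisolone they numbered 34 of 478 deposited regions (7.11%), and untreated 16 of 4557 (0.351%). Of the 34, 2 lay on Y and 32 on unplaced or other sequences. Of the 16, 1 lay on Y and 15 on such sequences. The share of calls on these sequences was larger with prednisolone, as was the share of high-background regions.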

How the results depend on the processing

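No paired analysis was possible because each group held 1 library. The share of prednisolone regions also called untreated was 70.5% and that of untreated regions called again was 6.85%. With −log10 q of at least 5 in both lists these were 62.9% and 5.59%, and with a fold of at least 5 they were 77.5% and 7.87%. With lists of equal length they were 31.3% and 31.1%. With untreated regions limited to those that pass after scaling by the ratio of the genome backgrounds, they were 35.6% and 29.0%. That ratio carries fragment length as well as depth. Leaving out high-background regions gave 82.8% of prednisolone regions also called untreated and 54.9% at gene ends, against 46.6% with all regions. High-background regions made up 15.1% of the prednisolone list, 20.5% with −log10 q of at least 5, 0.268% with a fold of at least 5 and 19.7% with every sequence of the files. The fold limit gave 54.7% at gene ends. Genes linked in both lists numbered 546 within 20 kb, 343 within 5 kb and 891 within 50 kb. The share of gained regions at NR3C1, high background included, was 61.8%. It was 43.1% with high-background regions left out and lay between 47.6% and 75.0% over the other alternatives. The share of lost regions in the untreated WT line was 26.8%, 59.2% with lists of equal length and 56.3% after the same scaling. The cause of these shifts was not tested beyond what each setting leaves out. Requiring 50% overlap, or summits within 500 bp, moved no share beyond its interval. The missing replicates and the depth of the prednisolone library limit every loss of a call described here.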

Other observations

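The STAT5B regions at 4 further genes, chosen after their values were seen, were as follows, where 93.2% of all untreated regions were lost. CCND3, a D-type cyclin gene, had 1 region within 50 kb with prednisolone (fold 7.86, kept) and 8 untreated, of which the strongest lay inside the gene with a fold of 12.4 and was not called again. CASP8, which encodes an initiator caspase of the death receptor pathway, had 0 regions with prednisolone and 4 untreated, the strongest inside the gene with a fold of 13.0. IKZF1 had 1 gained region of fold 8.61 with prednisolone and 3 other regions untreated, of folds 5.24, 5.4 and 6.04, none of which was called again. At IRF9 none was called with prednisolone within 50 kb and 5 were untreated, with folds from 4.55 to 7.5.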
